A study of Mus musculus with 16 samples.

Results

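Mice that lack 1 copy of the region matching human 16p11.2 (16p11.2 df/+) were compared with wild-type (WT) mice at postnatal day 14 (P14), in endothelial cells of the cerebral cortex. The comparison takes 8 of the 16 libraries of the series: 4 P14 df/+ and 4 P14 WT. Of the 52636 gene IDs in the count table, 14274 passed the filter on low counts and entered the test. The genes from Slx1b to Sept1 on chromosome 7 (GRCm38 126689468 to 127233130, 544 kb), which the df/+ mice carry once, were described apart from the other genes. The df/+ mice carry the deletion in every cell, so the groups differ in the genotype of the whole animal and not of endothelial cells alone. Both groups came from matings of df/+ males with WT females on a mixed B6/129 background, and no other treatment is named. Cells were taken from the cortex without culture, depleted of myelin and of cells bearing CD45, a surface protein of blood and immune cells, and then captured with beads against CD31, the product of Pecam1. Each library pooled the cells of 2 mice, so the 8 libraries stand for 16 mice. Spread between libraries is therefore spread between pools of mice.

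The 16p11.2 region holds many genes with unrelated functions, among them a kinase of the ERK pathway, a phosphatase subunit and subunits of chromatin and splicing complexes. Its loss in people is associated with autism and other developmental disorders. Brain endothelial cells line the capillaries and form the blood-brain barrier through tight junctions and dedicated transporters, and in mice the cortical vessels are still maturing in the weeks after birth.

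The libraries held 8658792 to 18063589 counted reads, and df/+ replicate 2 had the lowest total. Endothelial transcripts were abundant in all 8 libraries: the summed level of the 32 identity markers was 30093 to 32608 CPM, the count per 1000000 reads after scaling with the TMM factors used in the test. Genes of the Y chromosome were present in all 8, with Ddx3y at 65.1 to 104 CPM, and Xist was at 0 to 0.277 CPM. One WT library, replicate 1, stood apart from its group. On the leading principal component, which held 41.2% of the variance, it scored -30.1, the other WT libraries 28.2 to 35.5, and the df/+ libraries -28.0 to 0.341. Its interval genes were at the WT level. The numbers that end the submitters' column labels were 1, 3, 7 and 8 in WT and 9 to 12 in df/+. What they stand for is not stated. If they follow an order of handling, effects of that order and of the genotype cannot be told apart.

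Every tested gene of the interval had a lower level in df/+. Of 56 annotated genes in it, 37 are protein coding and 26 were tested, and the 26 tested genes were all lower. Their log2 fold changes had a median of -1.09, against -0.00 over all tested genes. Without the filter on low counts 38 of 40 interval genes were lower, and with another test, DESeq2, 37 of 39. A test in edgeR across all genes called 18 of the 26 at an adjusted p under 0.05. All 18 calls lower in df/+ fell in the interval; such calls make up 0.126% of all tested genes. In 22 of the 26 genes no df/+ library reached the lowest WT library, against 2.07% of all tested genes. Averaged over the 26 genes, the log2 CPM of the WT libraries lay at -0.10, 0.00, 0.04 and 0.05 around the WT mean, and the df/+ libraries at -0.95, -1.08, -1.15 and -1.05. The groups do not overlap, and the exact two-sided permutation test gave p = 0.0286, the smallest that 4 against 4 libraries can give. The 95% interval of the log2 fold change included -1, the value of a level at 1 copy that is 50% of that at 2 copies, in 25 of the 26 genes, Fam57b being the exception.

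**Figure D1:**
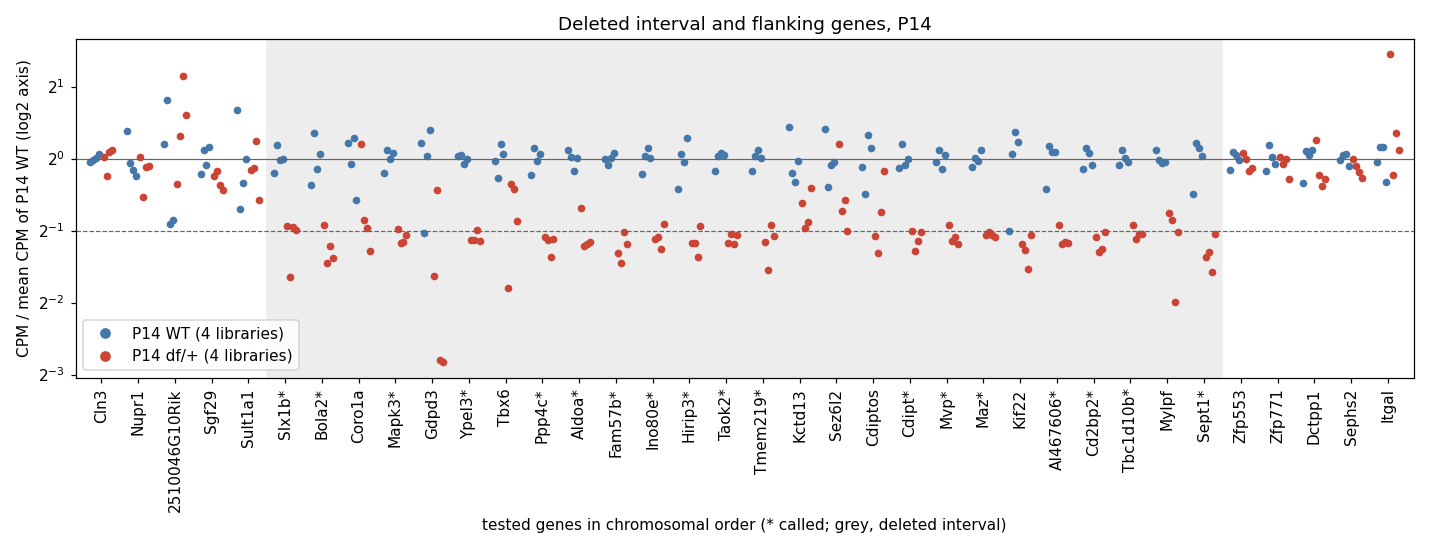
CPM of each library divided by the mean CPM of the 4 WT libraries, on a log2 axis, for the 26 tested interval genes (grey) and the 5 nearest tested genes on each side; each point is 1 library and asterisks mark called genes. The df/+ points of called genes lie near the dashed line at 50% inside the interval, and both groups overlap in the flanking genes.

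Genes of signalling proteins in the interval fell together. Mapk3, which encodes ERK1, measured 278, 346, 318 and 337 CPM in the WT libraries and 162, 142, 144 and 153 CPM in df/+. The groups were clearly apart, with a log2 fold change of -1.09 (SE 0.0806, adjusted p = 2.30e-04 by edgeR). Taok2, a kinase upstream of stress-activated MAP kinases, measured 289, 334, 342 and 336 CPM in WT and 144, 157, 143 and 156 CPM in df/+ (log2 fold change -1.12, SE 0.0709). Ppp4c, the catalytic subunit of protein phosphatase 4, fell from 83.7, 109, 96.1 and 103 CPM to 45.9, 44.9, 38.2 and 45.2 CPM (log2 fold change -1.17, SE 0.0952). Ypel3, of a small zinc-binding protein family, had 80.4 to 88.3 CPM in WT and 38.4 to 43.0 CPM in df/+. Tbc1d10b, an activator of Rab GTPase hydrolysis, had the smallest fall of the called genes, from 61.7 to 71.4 CPM in WT to 30.4 to 34.6 CPM in df/+ (log2 fold change -1.03, SE 0.0724).

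Genes of transcription, splicing and chromatin fell by similar amounts. Maz, a zinc-finger transcription factor, measured 204, 224, 217 and 241 CPM in WT and 106, 110, 106 and 104 CPM in df/+ (log2 fold change -1.06, SE 0.0631, adjusted p = 7.14e-05 by edgeR). Cd2bp2, a component of the U5 splicing particle, went from 99.0 to 121 CPM to 44.5 to 53.6 CPM. Ino80e, a subunit of the INO80 chromatin remodeller, went from 20.9 to 26.7 CPM to 10.1 to 12.9 CPM. Hirip3, a partner of the histone chaperone HIRA, went from 10.4 to 17.1 CPM to 5.42 to 7.33 CPM. In each of these genes every df/+ library lay below every WT library.

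Metabolic and structural genes followed the same pattern. Aldoa, a glycolytic aldolase, measured 416, 387, 338 and 386 CPM in WT and 237, 164, 168 and 171 CPM in df/+ (log2 fold change -1.04, SE 0.121, adjusted p = 0.00573 by edgeR). Its df/+ replicate 1 was higher than the other 3 but still below every WT library. Cdipt, the enzyme that makes phosphatidylinositol, went from 129 to 163 CPM to 57.7 to 70.4 CPM, and Mvp, the main protein of vault particles, from 44.9 to 53.7 CPM to 21.7 to 26.1 CPM. Fam57b had 42.2 to 47.2 CPM in WT and 16.4 to 22.2 CPM in df/+. AI467606 had 42.8 to 64.8 CPM and 25.3 to 30.3 CPM. Bola2, Slx1b, Tmem219 and Sept1, with 7.87 to 27.8 CPM in WT, completed the 18, and Sept1, a septin, had the largest fall of them (log2 fold change -1.31, SE 0.172). Over the 18 genes the log2 fold change ranged from -1.31 to -1.03, with an SD of 0.0724 between genes, while the SE of a single gene was 0.0631 to 0.172. Per kilobase of exon, Mapk3 had the highest WT level of these genes, 142 CPM per kb, and Ino80e the lowest, 3.17 CPM per kb.

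Leaving out each library in turn kept 13 of the 18 calls every time. Slx1b, Bola2, Hirip3, Tmem219 and Sept1 each lost the call in at least 5 of the 8 fits, with direction unchanged. Slx1b and Bola2 lie head to head and their annotated bodies overlap on opposite strands, as do those of Aldoa and Fam57b, of Ino80e and Hirip3, of Sept1 and Zfp553 and of Bola2 and Coro1a. How the counting treated strand is not stated in the labels, so reads of such pairs cannot be assigned with certainty. The start regions of Bola2 and Slx1b share 284 of the 300 bases that RefSeq gives for each, from 250 bases before to 50 after the start. The Bola2 window is printed because both genes of the pair fell and their starts lie in 1 stretch of sequence (GRCm38.p6, chr7:126695750-126696049, plus strand, CG pairs in capitals). It holds 22 CG pairs, against a median of 7 over the 32851 promoter windows of the table, and 23.1% of windows hold as many or more; over the 27 windows of 21 tested interval genes the median is also 22.
Bola2: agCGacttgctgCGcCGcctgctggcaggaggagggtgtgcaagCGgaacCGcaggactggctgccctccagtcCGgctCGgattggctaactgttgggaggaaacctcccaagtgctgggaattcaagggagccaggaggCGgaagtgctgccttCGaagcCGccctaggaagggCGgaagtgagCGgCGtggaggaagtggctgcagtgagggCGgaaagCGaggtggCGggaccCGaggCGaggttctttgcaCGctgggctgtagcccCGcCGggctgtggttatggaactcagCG

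The 8 tested interval genes without a call were mostly those with few reads. Kif22, a chromosome-binding kinesin, measured 9.09, 19.1, 23.6 and 21.5 CPM in WT and 8.07, 7.59, 6.34 and 8.79 CPM in df/+. Its WT replicate 1 was far below the other WT libraries and near the df/+ level (log2 fold change -1.25, SE 0.258, adjusted p = 0.276 by edgeR), and Kif22 was called without that library. The summed CPM of the 25 proliferation genes was likewise 285 in WT replicate 1, against 566 to 621 in the other WT libraries and 466 to 593 in df/+; its part in the Kif22 result was not tested. Gdpd3, which acts on lysophospholipids, had 5.02 to 13.5 CPM in WT and 1.45 to 7.59 CPM in df/+, and the groups overlapped. Kctd13, an adaptor of the CUL3 ubiquitin ligase that targets RhoA, had 4.23 to 7.22 CPM in WT and 2.72 to 4.01 CPM in df/+ (log2 fold change -0.68, 95% interval -1.17 to -0.20). Mylpf, a skeletal muscle myosin light chain, Tbx6, a T-box transcription factor, and Cdiptos had log2 fold changes of -1.08, -0.79 and -0.73. Cdiptos passed the filter on low counts only through its WT libraries. Sez6l2, a neuronal membrane protein, and Coro1a, an actin-binding protein abundant in leukocytes, had the smallest differences, -0.43 (95% interval -1.05 to 0.19) and -0.58 (95% interval -1.33 to 0.17). In both, df/+ replicate 1 lay within the WT range; that library also had the highest summed level of 20 neuron markers, 265 CPM against 79.2 to 152 in WT and 80.5 to 136 in the other df/+ libraries, and the part of this in the Sez6l2 value was not tested.

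The other 30 interval genes were too low to test, and 16 of them had no read in the 8 libraries. Among the 11 protein-coding ones, Spn, a sialoglycoprotein of leukocytes, had 51 reads over the WT libraries and 24 over df/+, Asphd1 21 and 7, Prrt2, a presynaptic protein, 18 and 9, and Doc2a, a calcium sensor of synaptic vesicles, 5 and 2. Qprt, an enzyme of NAD synthesis, had 14 and 0, and Zg16 41 and 0; 1 WT library held nearly all reads of Zg16, at 2.83 CPM in WT replicate 4 against 0 to 0.0811 in the others. Pagr1a, a component of histone methyltransferase complexes, and its copy Pagr1b were at 0 in every library, and values of such near-identical copies are uncertain.

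No gene beside the interval was called lower. The 5 nearest tested genes on the Slx1b side (Cln3, Nupr1, 2510046G10Rik, Sgf29 and Sult1a1) had log2 fold changes of -0.30 to 0.50, and the 5 on the Sept1 side (Zfp553, Zfp771, Dctpp1, Sephs2 and Itgal) of -0.14 to 0.60. None was called by edgeR; Sgf29, a SAGA complex subunit, had the smallest adjusted p, 0.569. Over the 20 nearest tested genes on each side, the medians were -0.05 and -0.06 and 0 were called, while 3 and 1 had an unadjusted p under 0.05, against 8.52% of all tested genes. Zfp553, which overlaps Sept1, measured 16.1, 19.1, 18.5 and 17.6 CPM in WT and 18.8, 17.9, 15.9 and 16.3 CPM in df/+.

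The P50 libraries, taken at postnatal day 50, gave the same measures in other mice. The numbers that end their column labels were lower in df/+ than in WT, the reverse of P14. All 18 interval genes called at P14 were also lower at P50, with a median log2 fold change of -0.94 and a range of -1.31 to -0.39. In the fit of all 16 libraries 6 of them were called at P50, where 0.0586% of 15368 tested genes were called in all. The same fit of 16 libraries, whose spread is shared with P50, called 10 genes at P14, 0.0651% of those tested, all in the interval. The difference of the df/+ effect between P50 and P14 was tested in the 16 libraries for the 22 genes called at P14, and edgeR called 0 of them (0% of all tested genes); Ncan and a had an unadjusted p under 0.05, as had 1.98% of all tested genes.

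Of the genes that work with the deleted ones, edgeR called none with all 8 libraries. Of 48 tested paralogues of interval genes, 28 were higher and 20 lower, with a median of 0.02 against -0.00 over all tested genes, and 0 were called. Aldoc, the aldolase typical of astrocytes, had the largest difference of the 3 paralogues with the smallest p (101 to 167 CPM in WT, 143 to 208 in df/+, adjusted p = 0.548 by edgeR). The astrocyte markers described further on moved the same way, and their part in the Aldoc value was not tested. Of the ERK cascade 7 of 20 tested genes were higher and 13 lower, with a median of -0.04. Of the 19 genes that ERK induces, including Spred1, Etv5 and Phlda1, 13 were higher and 6 lower, with a median of 0.08. The INO80 complex had 3 higher and 11 lower of 14, the U5 particle 2 and 5 of 7, the phosphatase 4 complex 4 and 2 of 6, and the enzymes of phosphatidylinositol synthesis 3 and 11 of 14; the medians lay between -0.08 and 0.07. The HIRA chaperone group, the SLX4 nuclease group, the CUL3 and RhoA group and the KMT2C and KMT2D complexes had medians of -0.02, -0.09, -0.02 and -0.04. No member of these lists was called by edgeR or DESeq2 with all 8 libraries, and members with an unadjusted p under 0.05 numbered 0 to 4 per list, against 8.52% of all tested genes. Without WT replicate 1, edgeR called 1 paralogue higher, Aldoc (adjusted p = 0.0252), and 1 lower, 1 gene of the ERK cascade lower, and 2 of the genes that ERK induces higher, among them Spred1 (adjusted p = 0.0428); that fit called 2.68% of tested genes higher and 0.936% lower.

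Outside the interval, 4 genes were called, all higher in df/+, which is 0.0280% of all tested genes. Tyr encodes tyrosinase, the enzyme that starts melanin synthesis, and lies on chromosome 7 (GRCm38 87424771 to 87493512). It had 0 reads in each of the 4 WT libraries and 37, 31, 49 and 39 reads in the df/+ libraries, or 2.06, 3.51, 3.45 and 2.70 CPM. With 3 reads over the whole WT group taken as the floor of detection, its level was at least 54.4-fold higher in df/+. The floor covers counting error only. The edgeR test gave an adjusted p of 0.00290. Tyr passed the filter on low counts only through its df/+ libraries, so this p-value rests on the reads that let it be tested. At P50, Tyr again had 0 reads in all 4 WT libraries and had 17, 0, 42 and 46 reads in df/+, and it was not called there (adjusted p = 0.497 by edgeR in the fit of 16 libraries). Reads of Tyr were thus found in 4 of 4 df/+ libraries at P14, in 3 of 4 at P50 and in no WT library of either age.

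The gene a (nonagouti), on chromosome 2 (GRCm38 154791402 to 155051012), encodes the agouti protein, which opposes melanocortin signalling to pigment cells. It had 1, 1, 7 and 1 reads in WT and 39, 13, 30 and 25 reads in df/+ (0.0591 to 0.477 and 1.47 to 2.17 CPM). The groups did not overlap (log2 fold change 3.39, SE 0.520, adjusted p = 0.0410 by edgeR). Like Tyr, the gene a passed the filter on low counts only through its df/+ libraries. At P50 it had 0, 0, 1 and 0 reads in WT and 154, 241, 76 and 70 in df/+ (adjusted p = 7.79e-04 by edgeR in the fit of 16 libraries). Its annotated body overlaps Raly on the same strand and Eif2s2 on the opposite strand. The other tested pigment genes, Pmel, Kit, Kitl, Mlph and Myo5a, had log2 fold changes between -0.25 and 0.46 and none was called; Dct and Oca2 were too low to test, with 0 to 1.05 CPM, and Tyrp1 was at 0 in all 8 libraries.

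**Figure D2:**
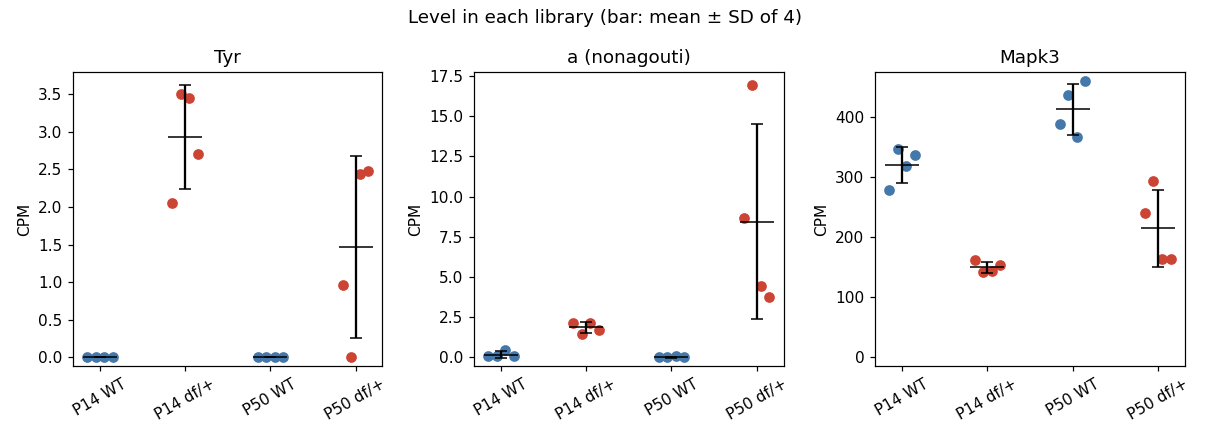
CPM of Tyr, a and Mapk3 in each of the 16 libraries by age and genotype; points are libraries, and bars give the mean and SD of 4. Tyr is at 0 in all 8 WT libraries and in 1 P50 df/+ library, a lies at or below 0.477 CPM in WT and at or above 1.47 CPM in df/+, and Mapk3 is lower in df/+ at both ages.

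The start regions of Tyr and a are printed because these genes had the largest called differences outside the interval. In the Tyr window (RefSeq, GRCm38.p6, chr7:87493463-87493762, minus strand) capitals mark GTCATGTG, which contains CATGTG, a letter string of the kind bound by MITF, the transcription factor of pigment cells. In all 32851 windows of 300 bases, read on both strands, CATGTG is present in 14.2% and the longer GTCATGTG in 1.06%. The a window (chr2:155013320-155013619, plus strand) does not hold GTCATGTG. A match describes the letters of the window and is no evidence of binding in these cells.
Tyr: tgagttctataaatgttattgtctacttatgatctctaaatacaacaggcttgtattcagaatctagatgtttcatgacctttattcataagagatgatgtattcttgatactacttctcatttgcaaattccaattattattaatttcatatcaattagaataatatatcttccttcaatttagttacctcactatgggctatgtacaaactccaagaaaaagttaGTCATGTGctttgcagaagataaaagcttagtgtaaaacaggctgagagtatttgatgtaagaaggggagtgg
a: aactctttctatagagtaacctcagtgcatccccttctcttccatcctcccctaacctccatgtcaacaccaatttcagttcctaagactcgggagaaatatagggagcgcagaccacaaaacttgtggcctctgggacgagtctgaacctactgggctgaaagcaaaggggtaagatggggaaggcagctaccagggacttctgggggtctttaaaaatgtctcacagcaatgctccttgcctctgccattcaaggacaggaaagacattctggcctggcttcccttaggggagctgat

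Ncan and Fads2 were the other called genes. Ncan, neurocan, a proteoglycan of the brain extracellular matrix made mainly by astrocytes and neurons, measured 55.2, 44.4, 57.5 and 65.2 CPM in WT and 87.7 to 117 CPM in df/+ (log2 fold change 0.84, SE 0.122, adjusted p = 0.0323 by edgeR). Fads2, a desaturase that makes long-chain polyunsaturated fatty acids, measured 48.8, 44.4, 46.6 and 51.7 CPM in WT and 61.8, 66.8, 65.7 and 70.2 CPM in df/+ (log2 fold change 0.47, SE 0.0703, adjusted p = 0.0371). In both genes every df/+ library lay above every WT library. At P50 the log2 fold changes were 0.20 for Ncan and 0.14 for Fads2, and neither was called. Of the 8 fits that left out 1 library, Fads2 lost its call in 7, a in 6 and Ncan in 5; Tyr kept its call in all 8. The summed CPM of 19 astrocyte markers was 5892 to 6611 in WT and 6349 to 7283 in df/+. Slco1c1 alone held 3104 to 3582 CPM of it in WT and 3152 to 3487 in df/+ (log2 fold change -0.02). Of the 19 markers 18 were higher in df/+, with a median of 0.49. The part of astrocyte transcripts in the Ncan value was not tested.

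**Figure D3:**
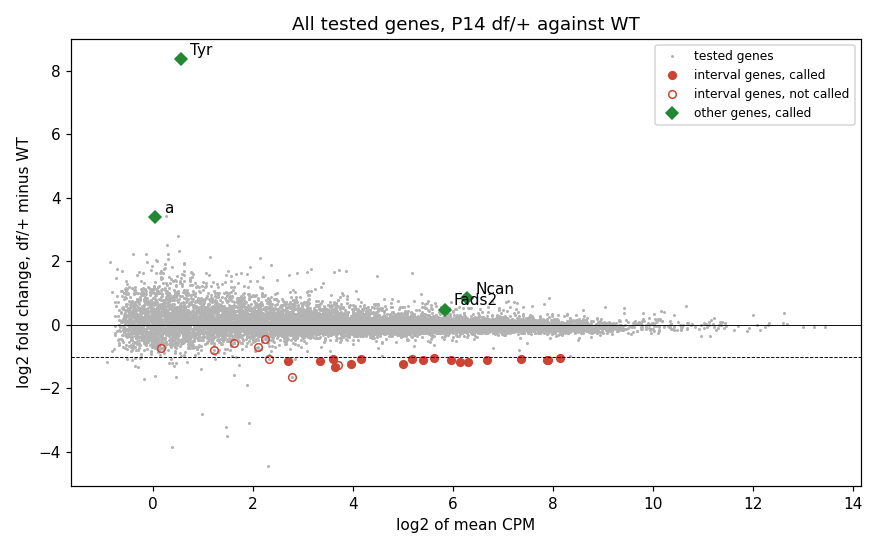
Log2 fold change of df/+ against WT over the log2 of the mean CPM for the 14274 tested genes; filled red points are called interval genes, open red points interval genes without a call, and green diamonds the other called genes. The 26 interval genes lie below 0, most near the dashed line at -1, and Tyr and a stand above the other called genes.

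Below these 4, the genes with the smallest p and groups that did not overlap missed the adjusted threshold of edgeR. DESeq2, run on the same libraries, called 14 of the 16 named here, all but Surf1 and Rps27rt. It called 68 of the 27539 genes it tested. The 16 were picked by their small p in these libraries, so the 14 calls are no separate support. Such separation occurred in 259 genes higher in df/+ (1.81%) and 295 lower (2.07%). On the higher side they were Gfap, the intermediate filament of astrocytes (24.8 to 39.6 CPM in WT, 45.8 to 55.3 in df/+, adjusted p = 0.157 by edgeR), Aqp4, the water channel of astrocyte endfeet (22.6 to 34.0 and 38.6 to 58.5 CPM), Cd84, a receptor of immune cells (0.118 to 0.568 and 1.02 to 1.69 CPM), Tnni1, a slow muscle troponin (0.0591 to 0.354 and 0.899 to 4.30 CPM), Thbs1, thrombospondin 1 (3.75 to 5.92 and 7.07 to 12.7 CPM), and the amino acid transporter Slc38a1 (3.61 to 6.25 and 8.93 to 10.8 CPM). On the lower side, Madcam1, an adhesion molecule for leukocytes, had 25.1 to 33.1 CPM in WT and 13.9 to 21.2 in df/+, Hmox1, heme oxygenase 1, 46.1 to 65.0 and 33.8 to 41.7, Myl4 24.9 to 27.7 and 16.1 to 22.4, Surf1, an assembly factor of cytochrome c oxidase, 32.7 to 35.6 and 25.6 to 27.9, and Ppil2 74.9 to 80.8 and 64.5 to 66.3 CPM. The other lower genes were Rps15a-ps4, Rps15a-ps6, Gm6548, Rps27rt and Gm4070, which are pseudogenes, retrocopies or members of gene families, where the sharing of reads between copies makes the values uncertain. Rps15a-ps4 had 5.11, 0.945, 7.09 and 6.80 CPM in WT and 0.282 to 0.835 in df/+, so WT replicate 2 was close to df/+. Cd84 and Tnni1 passed the filter on low counts only through their df/+ libraries, and Rps15a-ps4, Rps15a-ps6 and Gm4070 only through WT.

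In the endothelial lists edgeR called no gene with all 8 libraries. DESeq2, which called 68 of the 27539 genes it tested, called 3 there. These were Madcam1, lower in df/+, and Ccl2 and Id2, higher (adjusted p = 0.00263, 0.0153 and 0.0494 by DESeq2). Pecam1, the captured CD31, measured 1331, 1428, 1384 and 1389 CPM in WT and 1440, 1313, 1345 and 1356 CPM in df/+ (log2 fold change -0.02, 95% interval -0.15 to 0.11). Cdh5, VE-cadherin of adherens junctions, had 1063 to 1275 and 1112 to 1219 CPM (95% interval -0.20 to 0.12), and Cldn5, the main claudin of the barrier, 3333 to 4602 and 3364 to 3686 CPM (95% interval -0.39 to 0.03). The growth factor receptors Kdr and Tek had intervals of -0.09 to 0.24 and -0.12 to 0.20. The barrier transporters Slc2a1, Mfsd2a and Abcb1a, which carry glucose, lysophospholipids and drugs, had intervals of -0.19 to 0.29, -0.30 to 0.07 and -0.11 to 0.33. Nos3, endothelial nitric oxide synthase, had 404 to 510 CPM in WT and 415 to 433 in df/+ (95% interval -0.32 to 0.03). All 9 genes overlapped between the groups, and each interval lay above -0.5 and below 0.5.

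**Figure D4:**
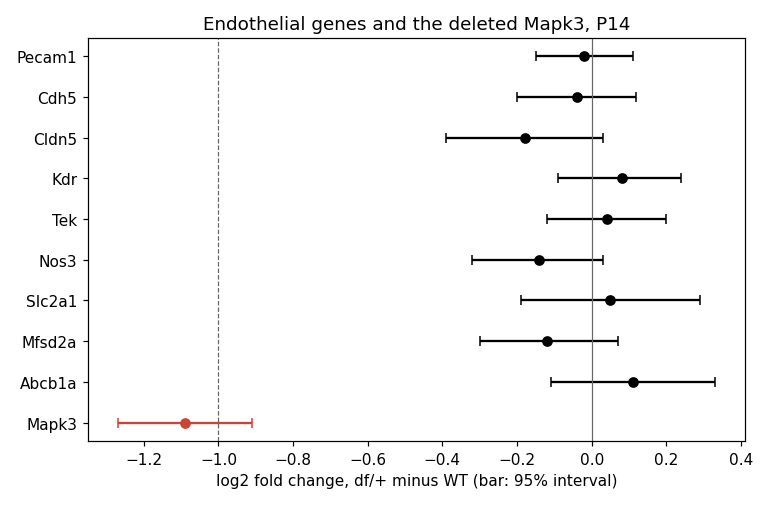
Log2 fold change of df/+ against WT with its 95% interval for 9 endothelial genes and Mapk3 (red), from the fit of 8 libraries. The intervals of the 9 endothelial genes include 0, and that of Mapk3 includes -1.

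Across the 32 identity markers 15 were higher and 17 lower with a median of -0.00, and the 95% interval of 30 lay within 0.5 of 0 on the log2 scale. The lowest p among them were those of Ecscr, Egfl7 and Esam, with log2 fold changes of -0.40, -0.20 and -0.14 and adjusted p of 0.569 to 0.580 by edgeR. The 34 junction and transporter genes divided 17 to 17 with a median of -0.00. Angiogenesis genes had 10 higher and 18 lower of 28, arterial and Notch genes 10 and 12 of 22, venous genes 7 and 6 of 13, genes of vascular tone 13 and 11 of 24, Wnt targets 11 and 8 of 19, basement membrane genes 11 and 9 of 20, and genes of TGF-beta and BMP signalling 15 and 6 of 21; their medians lay between -0.05 and 0.04. Leukocyte adhesion genes had 13 higher and 5 lower of 18 and a median of 0.12. Among them Ccl2, a chemokine that attracts monocytes, had 0.295 to 1.87 CPM in WT and 1.84 to 4.23 in df/+ (adjusted p = 0.386 by edgeR). Its WT replicate 1 reached the df/+ range at 1.87 CPM, and the other WT libraries had 0.295 to 0.779. Fewer than 4 WT libraries of Ccl2 reached the 0.698 CPM of the filter on low counts. It thus entered the test only through its df/+ libraries. Id2, a target of BMP signalling, had 38.2 to 48.0 and 49.2 to 59.8 CPM (adjusted p = 0.375), and Gucy1a1, a subunit of the nitric oxide receptor, 62.0 to 71.5 and 52.2 to 56.9 CPM (adjusted p = 0.377). In bulk RNA a lower level per cell and fewer cells of a type cannot be told apart.

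The mean level of the markers of microglia and of perivascular macrophages was higher in df/+ than in 3 of the 4 WT libraries, and WT replicate 1 lay in the df/+ range. None of these markers was called by edgeR or DESeq2 with all 8 libraries. Of 22 microglia markers, all tested, 21 had a higher level in df/+ and the median log2 fold change was 1.60; 15 had an unadjusted p under 0.05 and 0 were called by edgeR. Their summed CPM was 257 in WT replicate 1, 76.3 to 101 in the other WT libraries and 221 to 306 in df/+. The purinergic receptor gene P2ry12, a marker of resting microglia, measured 6.41, 0.886, 1.09 and 0.637 CPM in WT and 8.74, 5.10, 7.75 and 10.5 CPM in df/+. The fractalkine receptor gene Cx3cr1 measured 12.1, 2.30, 1.23 and 0.992 CPM in WT and 13.4, 9.06, 16.3 and 15.6 CPM in df/+. In both genes 3 WT libraries were low and WT replicate 1 reached the df/+ range. Fewer than 4 WT libraries of P2ry12 reached the 0.698 CPM of the filter on low counts. It thus entered the test only through its df/+ libraries. The same holds for P2ry6 of this list (0.177 to 1.22 CPM in WT, 1.59 to 2.78 in df/+). Both are counted in the 21 higher markers and in the median. Ptprc, which encodes the depleted CD45, had 0.921 to 3.08 CPM in WT and 2.61 to 4.07 CPM in df/+. Perivascular macrophages gave a like result: 10 of 11 tested markers had a higher level in df/+ and the median was 1.42; Mrc1, the mannose receptor, had 29.9, 6.32, 5.45 and 4.82 CPM in WT and 26.1 to 44.3 CPM in df/+. The most abundant members of that list, the scavenger receptor gene Stab1 and the endocytic adaptor gene Dab2, had 525 to 661 and 293 to 329 CPM in WT and 513 to 603 and 271 to 356 CPM in df/+; both are also expressed by endothelial cells.

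Oligodendrocyte transcripts varied widely, and WT replicate 1 was above every other library: the summed CPM of 16 markers was 11614 in WT replicate 1, 1537 to 2532 in the other WT libraries and 2410 to 6865 in df/+, with 14 of 16 higher and a median of 0.50. The myelin gene Mbp measured 5442, 1451, 753 and 1343 CPM in WT and 2643, 1428, 2384 and 634 CPM in df/+. Of their precursors 9 of 10 tested markers were higher, with a median of 0.56. Astrocyte markers were higher in 18 of 19, with a median of 0.49 and 13 with an unadjusted p under 0.05; those with the smallest p were Gfap, Aqp4 and Sox9 (log2 fold change 0.35). Neuron markers were higher in 12 of 12 tested (20 listed), with a median of 0.74, and the groups of their summed CPM overlapped. Fibroblast markers were higher in 14 of 17, with a median of 0.40 and 10 with an unadjusted p under 0.05; those with the smallest p were the collagen VI genes Col6a1 and Col6a2 (log2 fold changes 0.88 and 0.71) and Lum. By mean log2 CPM WT replicate 1 did not reach df/+ in these markers. It lay 0.16 above the WT mean, and the df/+ libraries lay 0.27 to 0.54 above that mean. Their summed CPM overlapped between the groups, at 897 to 1051 in WT, with replicate 1 at 1010, and 963 to 1178 in df/+. Pericyte markers were higher in 3 of 15 with a median of -0.08, and smooth muscle markers in 5 of 8 with a median of 0.15. Choroid plexus and ependymal markers ranged from 32.3 to 3195 CPM in df/+ and from 581 to 1253 in WT, with groups that overlapped. Ttr, the transthyretin of the choroid plexus, made up most of this sum, with 1107, 1072, 546 and 1201 CPM in WT and 132, 16.5, 3077 and 2084 CPM in df/+. Red cell and platelet markers were higher in 8 of 10 with a median of 0.38, and lymphocyte and neutrophil markers, 4 tested of 18, in 2 of 4. No marker of these 12 lists was called by edgeR with all 8 libraries. DESeq2 called 2 astrocyte and 2 fibroblast markers, among 68 calls in the 27539 genes it tested. Over all genes tested by edgeR 49.3% were higher and the median was -0.00.

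**Figure D5:**
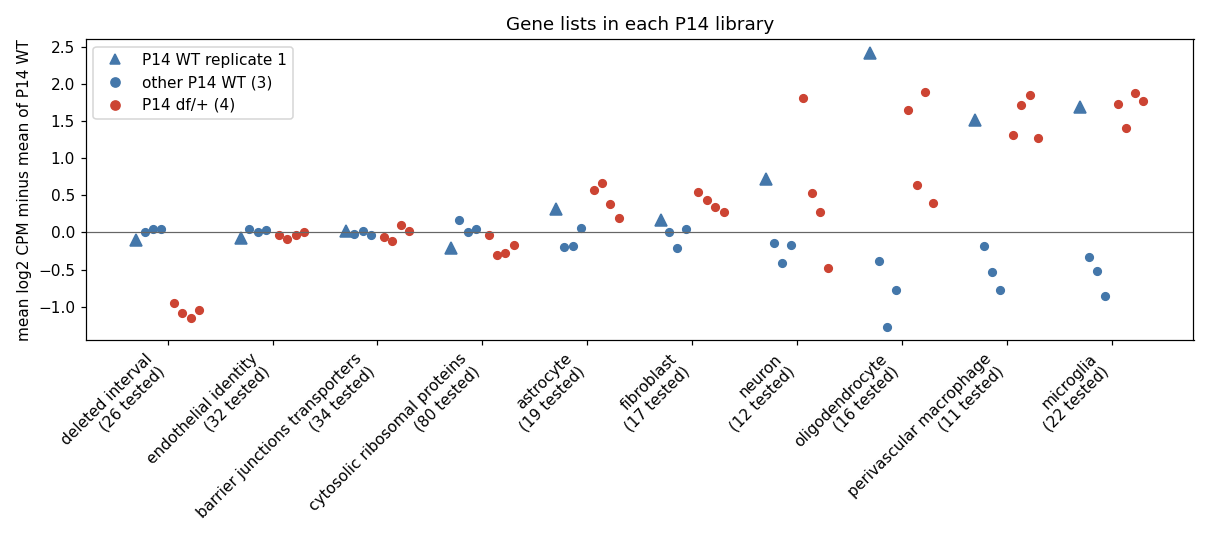
Mean log2 CPM of the tested members of 10 gene lists in each library, minus the mean of the 4 WT libraries; triangles mark WT replicate 1, blue points the other 3 WT libraries and red points the 4 df/+ libraries. The interval separates the genotypes, endothelial lists lie near 0 in all 8 libraries, and WT replicate 1 lies with the df/+ libraries for microglia and macrophages and above them for oligodendrocytes.

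The number of calls outside the interval turned on WT replicate 1. Without it, edgeR called 521 genes, 19 in the interval and 502 outside; 386 were higher in df/+ (2.68% of those tested) and 135 lower (0.936%). All 22 genes called with 8 libraries were among them. Of the 386 higher genes, WT replicate 1 itself reached the lowest df/+ library in 326. The genes with the smallest p outside the interval were C1qa, C1qb and C1qc, subunits of complement C1q, Csf1r, the receptor that maintains macrophages, Mrc1, Adgre1, Ctss, Fcrls, P2ry12 and Cx3cr1. C1qc measured 19.2, 3.37, 2.93 and 2.12 CPM in WT and 23.1, 18.4, 26.5 and 20.5 CPM in df/+; its log2 fold change was 1.71 (adjusted p = 0.569 by edgeR) with all libraries. In that reduced fit 54 of the higher genes were among the 149 tested markers of other cell types: 17 of 22 for microglia, 9 of 11 for perivascular macrophages, 11 of 16 for oligodendrocytes, 9 of 19 for astrocytes and 5 of 17 for fibroblasts. Among the 17, P2ry12 and P2ry6 entered the reduced fit only through their df/+ libraries. Of the 211 tested genes of the 10 endothelial lists, 4 were called higher and 6 lower. These were Aplnr, Ccl2, Ecscr, Id2, Madcam1, Plxnd1, Selplg, Slc19a3, Tmsb10 and Trp53i11. Ecscr and Tmsb10 had log2 fold changes of -0.52 and -0.45. Ccl2 entered this fit, too, only through its df/+ libraries.

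Among general cell processes, the genes of cytosolic ribosomal proteins had a lower level in df/+ in 78 of 80 tested; the median log2 fold change was -0.19, 24 had an unadjusted p under 0.05, against 8.52% of all tested genes, and 0 were called by edgeR or DESeq2. Their summed CPM was 21929 to 28857 in WT and 20861 to 25035 in df/+, with WT replicate 1 at the low end of its group. Mitochondrially encoded genes were higher in 7 of 7 tested (13 listed), with a median of 0.34. The summed CPM of WT replicate 1, 20666, lay within the df/+ range of 14104 to 22443, and the other WT libraries had 10150 to 12682. Immediate early genes were higher in 20 of 23, with a median of 0.18; Fos had 333 to 599 CPM in WT and 534 to 712 in df/+ (adjusted p = 0.541) and Fosb 127 to 234 and 187 to 384. Interferon-responsive genes were lower in 29 of 35, with a median of -0.22, led by Ifi35 (35.6 to 44.1 and 24.8 to 32.5 CPM, adjusted p = 0.386). Genes of class I antigen presentation were lower in 13 of 14, with a median of -0.30; H2-K1 had 122 to 395 CPM in WT and 114 to 120 in df/+ (adjusted p = 0.580), with WT replicate 3 at 395 and the other WT libraries at 122 to 143. Over the whole class I list that library also stood apart: its mean log2 CPM lay 0.51 above the WT mean, while the other WT libraries lay at -0.30, -0.14 and -0.07 and the df/+ libraries at -0.33 to -0.22. Without WT replicate 1, edgeR called 11 of 81 ribosomal protein genes lower and 4 of the 7 mitochondrial genes higher. It also called 5 of 23 immediate early genes higher, among them Fos (adjusted p = 0.00691 by edgeR). Of 35 interferon-responsive genes 1 was called higher and 1 lower, and of 14 class I genes 1 lower. That fit called 2.68% of tested genes higher and 0.936% lower. The summed immediate early CPM of WT replicate 1, 6209, lay in the df/+ range of 5378 to 6590. By chromosome, 120 of the 1089 tested genes of chromosome 7 outside the interval had an unadjusted p under 0.05, a share within the 6.11% to 11.1% found over the X chromosome and the other autosomes.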

How the data were processed

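Endothelial cells of mouse cortex were sequenced as poly(A)-selected stranded libraries, per the labels' protocols. The authors deposited raw read counts per Ensembl gene; the submitters' processing notes name STAR 2.5.3a, the build GRCm38.p5 and DESeq2. How reads were counted, with which annotation and strand setting, is not given in the sources used. Symbols and positions came from GENCODE M21 (GRCm38), which named 52489 of 52636 IDs; the 147 others held 0.00732% to 0.0134% of the counts. Start regions came from RefSeq (GRCm38.p6).

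The main test was the edgeR 4.0.16 quasi-likelihood test (glmQLFTest, R 4.3.3) on the 8 P14 libraries, with TMM factors of 0.987 to 1.02. Genes needed a count of at least 10, equal to 0.698 CPM, in 4 libraries (filterByExpr), which kept 14274 genes with 99.8% or more of each library's counts. Benjamini-Hochberg adjustment ran over all of them, and genes with an adjusted p under 0.05 were called. The biological coefficient of variation was 15.8%, with 6 residual and 4.15 prior degrees of freedom. The P14 libraries were fitted alone because P50 replicates spread more; the counts of calls of both fits were known when this was chosen, and the members, gene lists and tests were chosen with earlier results of these data known. The level of the interval was the mean log2 CPM (prior count 2), tested by exact permutation. Replicates of a group were checked to differ beyond counting noise. The script was tested on simulated counts.

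Genes were named from a rule: all interval genes, all called genes, the smallest p among genes with separate groups up to 10 per direction, 5 flanking genes per side, 3 per list by p and the most abundant of the marker lists, chosen endothelial, pigment and sex-linked genes, and the 10 smallest p without WT replicate 1. Some genes that the rule names are not reported here. Named outside this rule, after their values were seen, were the 10 endothelial list genes called without that library. Alternatives were all 16 libraries, other scalings and filters, DESeq2 1.42.0, limma-voom 3.58.1, a replicate block and each library left out. The replicate numbers of the sample titles were not taken as pairs. The replicate numbers inside the submitters' column labels differ from these for P14 df/+, and pairing by them was not tested.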

Additional observations from a re-analysis of the deposited data

Results flagged for a closer look

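Within a group of 4 libraries, a library was marked when its gap to the nearest other as a share of the group's range exceeded Dixon's 95% critical value. Chance marks about 1 in 20 groups; 31 of the 214 groups screened were marked, and 18 of the 31 marks fell on P14 WT replicate 1. Of these 18, 10 were on genes named because they had the smallest p without that library, so their number cannot be set against chance.

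In WT replicate 1, transcripts of microglia and macrophages were above the other WT libraries: C1qc at 19.2 CPM (others 2.12 to 3.37), C1qb at 17.8, C1qa at 17.4, Csf1r at 47.9, Mrc1 at 29.9, Adgre1 at 4.62, Ctss at 9.41, Fcrls at 12.5, P2ry12 at 6.41 and Cx3cr1 at 12.1 CPM. The summed CPM was 257 for microglia markers, 11614 for oligodendrocyte markers (others 1537 to 2532) and 520 for their precursors (others 302 to 324). In the same library Taok2 was low at 289 CPM (others 334 to 342), as were Cdh5 at 1063 (others 1240 to 1275), the summed INO80 complex at 566, the HIRA group at 815 and the proliferation genes at 285 CPM (others 566 to 621).

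In the other WT libraries, a was high in replicate 3 at 0.477 CPM and Surf1 in replicate 2 at 35.6 CPM.

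Among df/+ libraries, replicate 1 was high for Aldoa at 237 CPM (others 164 to 171), for AI467606 at 30.3, for the class I antigen genes at 2536 and for the lymphocyte and neutrophil markers at 12.9 summed CPM. Replicate 2 was low for Slx1b at 5.32 CPM (others 8.37 to 8.69), for Cd84 at 1.02 and for the fibroblast markers at 963 summed CPM, and high for Slc38a1 at 10.8. Replicate 3 was high for Ypel3 at 43.0 and Abcb1a at 1581 CPM and low for Ppp4c at 38.2 CPM.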

How the results depend on the processing

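The 22 calls were the same genes under RLE and upper-quartile scaling and limma-voom, and all 22 were among the 68 of DESeq2 (48 outside the interval) and the 35 found with no filter (16 outside). A minimum count of 30 left 20 calls, 2 of them outside, without Tyr and a. All 16 libraries gave 10 calls, 10 in the interval and 0 outside; without WT replicate 1, an alternative added after the data were seen, these 15 libraries gave 73 calls, 58 outside, and a median log2 fold change of the interval genes of -1.18. With the replicate block 12 genes were called, 12 in the interval and 0 outside. Libraries with the same number in the sample titles correlated at -0.207 to 0.238 in their deviations from the group means. Of these, 3 of 8 libraries correlated best with their own number, so the title numbers were not taken as pairs.

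Leaving out 1 library gave 14 to 521 calls, 13 to 19 in the interval and 1 to 502 outside; without WT replicate 2 there were 9 outside, 6 of them lower. Without df/+ replicate 3 the total was 14. The interval median stayed between -1.15 and -1.06, and the interval level between -1.09 and -1.03, each with p = 0.0571 by exact permutation, the smallest that 4 against 3 libraries can give. On the scale of counts per size factor it was -1.07. No gene called at P14 was called for a difference between the ages under any of the 3 alternatives run.

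Of 1095 values for 65 named genes, 951 kept their direction and side of the threshold. Tek ranged from -0.01 (without df/+ replicate 3) to 0.07 over the omissions and was -0.00 with 15 libraries, and Slc2a1 ranged from -0.04 (without df/+ replicate 3) to 0.12 and was -0.00 without WT replicate 2; neither was called in any of these fits. Of 697 list medians 33 moved by more than the spread between libraries, among them, without WT replicate 1, microglia to 2.82, perivascular macrophages to 2.57, oligodendrocytes to 2.09 and fibroblasts to 0.64. The cause of these shifts was not tested. Of the 8 interval genes without a call, 6 had a lower mean than every called one, where fewer reads give less precision; Kif22 and Gdpd3 did not, and Kif22 was called without WT replicate 1 (adjusted p = 3.40e-04 by edgeR).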
